A study of Mus musculus with 8 samples.

Results

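The 83 genes described here encode nuclear subunits of the mitochondrial respiratory chain (complexes I to IV), cytochrome c and ATP synthase, together with a few tissue-restricted isoforms and a supercomplex factor that carry symbols of the same families. They were chosen by symbol alone from 18193 genes of a mouse expression array: Nduf genes of the a, b, c, s and v series, Sdha to Sdhd, the Uqcr genes, the Cox genes of the families 4 to 8, the Atp5 genes, Cycs and Cyc1. Each gene was read by its brightest probe set that names no other gene, a rule that uses no difference between groups. The set of genes was chosen with earlier results of these data known. Complex I contributed 35 genes, complex II 4, complex III 9, cytochrome c 1, complex IV 17 and ATP synthase 17. The samples were DN3 thymocytes, precursors of T cells at a stage that needs Notch signals, in 4 groups of 2 arrays. The groups were WT cells under GSI, WT cells under DMSO, Ikaros-deficient (IkL/L) cells under GSI and IkL/L cells under DMSO. GSI is the gamma-secretase inhibitor MRK-003, which stops the release of the active part of Notch receptors. It was given for 16 h, and DMSO is its vehicle. The labels state a dose of 5 mM, which could not be checked here; doses in the micromolar range are usual for such inhibitors, so the unit is uncertain. All 4 groups were thymocytes depleted of lineage-positive cells, grown on the Notch-ligand stroma OP9 DL1 and sorted for CD25 without CD44 or lineage markers. IkL/L names an allele of Ikzf1, the gene of the transcription factor Ikaros, on both chromosomes. The age of the mice and whether animals were pooled are not given in the sources used here.

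The respiratory chain passes electrons from NADH (through complex I) and succinate (through complex II) by way of ubiquinone, complex III and cytochrome c to oxygen at complex IV, and ATP synthase uses the proton gradient that results. Most subunits are encoded in the nucleus, made in the cytosol and imported, and a few core subunits are encoded by mitochondrial DNA. Dividing thymocytes are known to use both glycolysis and oxidative phosphorylation.

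Values are log2 levels, and a difference of 1 is a 2-fold change. A gene counted as higher or lower (called) when its limma p, adjusted by Benjamini-Hochberg over all 18193 genes, was below 0.05; limma borrows the spread of all genes to judge each one. Replicates correlated with r between 0.975 and 0.993 across probe sets. Nothing in the labels shows that they came from separate mice or cultures, so the p-values measure how far apart these samples lie, a spread that may be technical, and the number of arrays limits the precision. Ikzf1 stood at 11.14 and 11.19 in IkL/L DMSO, against 11.95 and 12.17 in WT DMSO, a difference of -0.90 ± 0.144 (SE; limma, adjusted p = 0.0222). Its probe set could not be placed relative to the IkL change, so it does not check the labels. The DN3 marker list (10 genes) averaged 10.61 to 10.80 on the GSI arrays, against 11.22 to 11.64 on the DMSO arrays. The list did not move as a whole. In the average GSI response 5 of the 10 differences lay above 0, and the median was -0.007. None was called higher there, and 2 were in IkL/L cells alone. Called lower under GSI were 3 of the 10: Dtx1, a direct Notch target (-4.38 ± 0.138; SE, limma, adjusted p = 1.6e-05), Il2ra, which encodes the sort marker CD25 (-2.28 ± 0.107), and Ptcra, the pre-T cell receptor alpha chain (-1.99 ± 0.109). These calls were made again without each of the 8 arrays, and the part of this shift in the results below was not tested.

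RNA quality and markers of other cells also differed between the arrays. The GAPDH 3' minus 5' control difference, a sign of shorter labelled RNA where it is large, was 2.20 and 3.08 in WT GSI, against 1.71 and 2.12 in WT DMSO. It was 3.09 and 3.03 in IkL/L GSI, against 1.87 and 2.47 in IkL/L DMSO. The mean of 18 stromal markers was 8.14 and 6.53 in WT GSI, against 7.45 and 6.68 in WT DMSO, and 7.88 and 7.39 in IkL/L GSI, against 7.87 and 6.91 in IkL/L DMSO. None of the 18 was called in the average GSI response by limma, with none at an unadjusted p below 0.05 there and 2 in the response of IkL/L cells. When the fit carried the GAPDH difference, 13 of the 18 were called higher under GSI. Of 15 myeloid and dendritic markers, 8 were higher under GSI and none lower; their mean was 5.72 and 5.50 in WT GSI against 5.31 and 5.00 in WT DMSO, and 6.74 and 6.68 in IkL/L GSI against 5.49 and 5.52 in IkL/L DMSO. Of 7 B cell markers 2 were higher (Cd79b by 1.28 and Vpreb1 by 1.80, in all 8 omissions of single arrays) and the other differences also lay above 0. Of 7 later thymocyte markers Cd4 was higher by 0.77 and Cd5 lower by -1.15, each in 5 of the 8 omissions, and none of 4 erythroid markers was called. The part of these markers in the results below was not tested. In such bulk samples, fewer cells of a type and less RNA per cell cannot be told apart.

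Under GSI, averaged over both genotypes, 32 of the 83 genes were lower and 3 were higher. The largest decreases were those of Atp5g1, which encodes the c subunit of the ATP synthase rotor, Uqcrq, a small subunit of complex III, and Cycs, the electron carrier between complexes III and IV, each more than 2-fold. Genes called lower were found in every complex. They made up 34.3% of complex I, 25% of complex II, 33.3% of complex III and 23.5% of complex IV. ATP synthase had the highest share of the 5 complexes (64.7%, 11 of 17 genes). The 3 increases were Cox7a2l, Cox6b2 and Ndufa6. Of all genes tested, 12.5% were lower and 10.8% higher in the same comparison, against 38.6% and 3.61% of these 83. Their median difference was -0.262, against -0.002 over all genes, and 67 of the 83 were negative. Most of these genes were bright, with 76 of the 83 above the median level of all genes. In a fit of genes above that median alone, 35 of them were lower and 5 higher. Of all genes in that fit, 24.3% were lower and 20.4% higher. The shares lower in complexes II (25%) and IV (23.5%), taken from the fit of all genes, lay close to that 24.3%.

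In 39 of the 83 genes both GSI arrays lay below both DMSO arrays in each genotype, as did 15.6% of all genes, and in 4 genes both GSI arrays lay above, as did 13.7% of all genes. Among the 32 genes called lower the median difference was -0.54, and the smallest was -0.25. When single arrays were left out, the share of all genes called lower moved in the same direction as the count among the 83 in all 8 fits. In those fits the median of the 83 lay between -0.315 and -0.226, beside -0.026 to 0.016 for all genes. With each of the 8 arrays left out in turn, between 17 and 41 genes were lower and between 1 and 5 higher. The 3 higher calls became 1 without either IkL/L DMSO array or IkL/L GSI replicate 2, and 5 without IkL/L GSI replicate 1. The lowest counts of lower genes came without IkL/L DMSO replicate 1 (17), WT DMSO replicate 1 (19), IkL/L GSI replicate 1 (20) and IkL/L DMSO replicate 2 (21). The fits without IkL/L DMSO replicate 1, IkL/L DMSO replicate 2, IkL/L GSI replicate 1, IkL/L GSI replicate 2 and WT DMSO replicate 1 lost 17, 13, 12, 13 and 13 of the 35 calls, all in the same direction as before, and the adjusted p of lost calls reached at most 0.16. In all 8 of these fits 17 of the 35 calls were made again: Atp5e, Atp5g1, Atp5g3, Atp5k, Atp5l, Atp5o, Cox5a, Cox7a2l, Cycs, Ndufa12, Ndufa4, Ndufa5, Ndufc1, Ndufs1, Ndufs5, Uqcr11 and Uqcrq. With the GAPDH 3' minus 5' difference as a covariate, 12 genes were lower and 3 higher, 14 of the 35 calls were made again, and the median of the 83 was -0.08 beside 0.068 for all genes. Of all genes, 7.9% were lower and 12.3% higher in that fit.

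**Figure D1:**
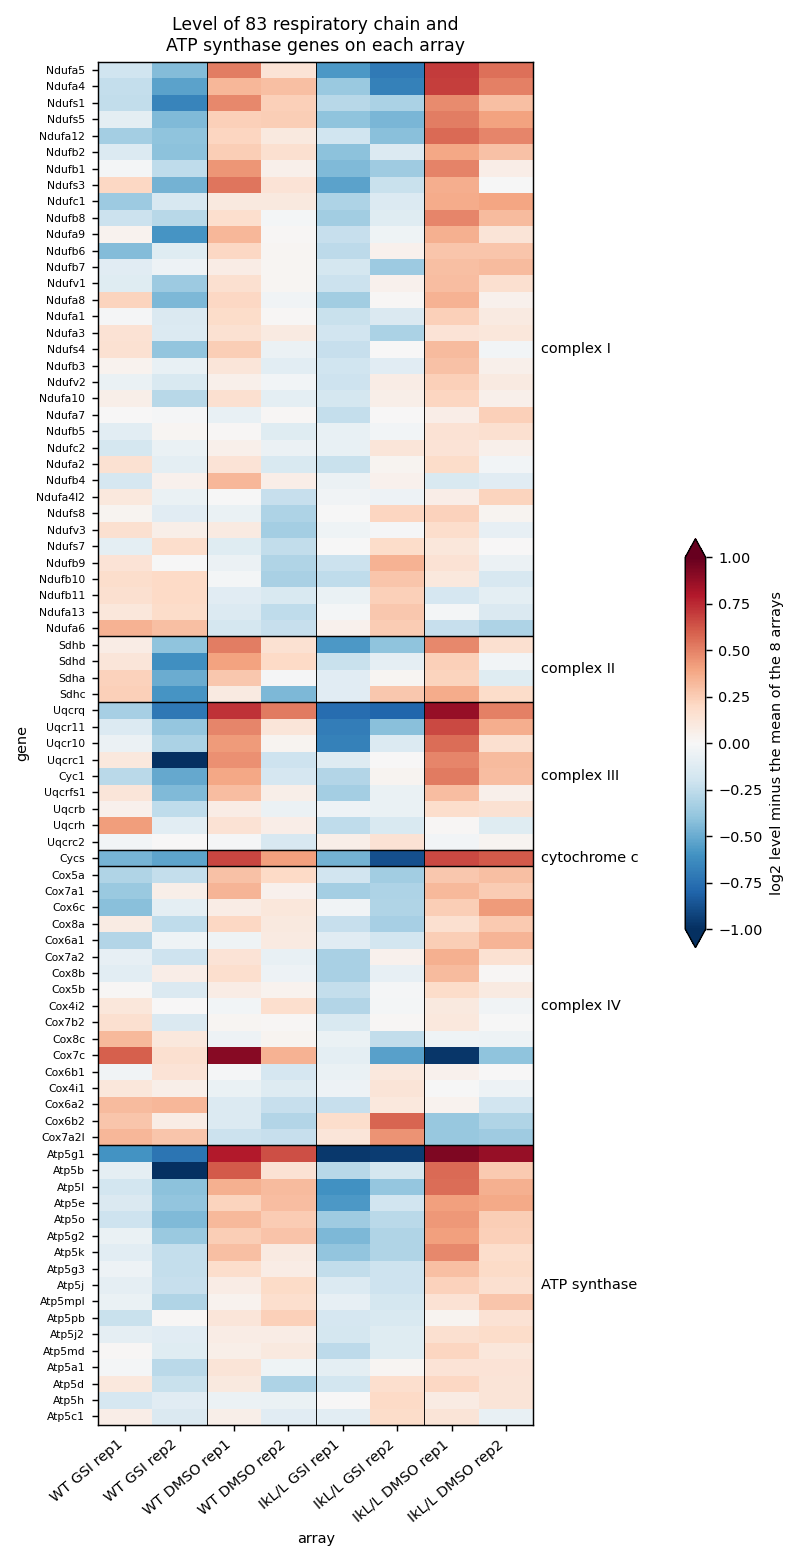
Log2 level of each of the 83 genes (rows, grouped by complex and ordered by their average difference) on each of the 8 arrays (columns), after subtracting the gene's mean over the arrays; blue is below and red above that mean. Most rows are bluer in the GSI columns than in the DMSO columns beside them, and Atp5g1, Uqcrq and Cycs have the strongest contrast.

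Complex I, which takes electrons from NADH, had 12 of its 35 genes lower and 1 higher, with a median of -0.238. Complexes were assigned by symbol, so these counts include Ndufa4 and its relative Ndufa4l2. Ndufa5, an accessory subunit of the peripheral arm, stood at 10.89 and 10.65 in WT GSI, against 11.60 and 11.23 in WT DMSO, and at 10.51 and 10.38 in IkL/L GSI, against 11.79 and 11.64 in IkL/L DMSO. All 4 GSI arrays lay below all 4 DMSO arrays, and the difference was -0.96 ± 0.119 (SE; limma, adjusted p = 0.00106). Ndufa4, first described in complex I and now known as a complex IV subunit, stood at 9.74 and 9.44 in WT GSI, against 10.31 and 10.27 in WT DMSO, and at 9.60 and 9.30 in IkL/L GSI, against 10.67 and 10.48 in IkL/L DMSO. The arrays again did not overlap, with a difference of -0.91 ± 0.130 (adjusted p = 0.00188). Ndufs1, the largest core subunit and a carrier of iron-sulfur clusters, stood at 9.80 and 9.39 in WT GSI, against 10.52 and 10.28 in WT DMSO, and at 9.76 and 9.73 in IkL/L GSI, against 10.52 and 10.34 in IkL/L DMSO. Its GSI arrays were all lower, by -0.75 ± 0.135 (adjusted p = 0.00538).

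The other called accessory genes of complex I lay closer together. Ndufs5 fell by 0.70 and Ndufa12, which joins late in assembly, fell by 0.68, while Ndufb2, Ndufb1, Ndufc1, Ndufb8, Ndufb6, Ndufb7 and Ndufa1 had differences between -0.54 and -0.26. Among the 6 core subunits in the set, Ndufs1 was the single call. Ndufv1, which binds NADH and the flavin, had a difference of -0.33 ± 0.101 (adjusted p = 0.0501), and Ndufs3 had -0.51 ± 0.187 (adjusted p = 0.0878). The core subunits Ndufv2 (-0.18), Ndufs8 (0.06) and Ndufs7 (0.13) were nearer to 0 and did not pass. Ndufa6, an accessory subunit of the LYR protein family, went the other way: it stood at 10.74 and 10.69 in WT GSI, against 10.22 and 10.16 in WT DMSO, and at 10.44 and 10.65 in IkL/L GSI, against 10.17 and 10.09 in IkL/L DMSO. No GSI array overlapped a DMSO array, and the difference was 0.47 ± 0.104 (adjusted p = 0.0128). The adjusted p was 0.0527 to 0.0641 without either IkL/L DMSO array or without IkL/L GSI replicate 2. Ndufa4l2, a hypoxia-induced relative of Ndufa4, lay below the median of all genes in level and had a difference of -0.03.

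Complex II, which is also succinate dehydrogenase of the citric acid cycle, had 1 of its 4 genes lower (25%, beside 12.5% of all genes). Sdhb, the iron-sulfur subunit, stood at 11.30 and 10.82 in WT GSI, against 11.73 and 11.38 in WT DMSO, and at 10.65 and 10.82 in IkL/L GSI, against 11.70 and 11.38 in IkL/L DMSO. WT GSI replicate 1 came within 0.1 of a DMSO array without overlap, and the difference was -0.65 ± 0.147 (limma, adjusted p = 0.0144). Without WT DMSO, IkL/L DMSO or IkL/L GSI replicate 1 the adjusted p was 0.0536 to 0.0687. Sdha, the flavoprotein that oxidises succinate, had -0.18 ± 0.166, and the membrane anchors Sdhd and Sdhc had -0.40 and -0.10; none of these passed.

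Complex III hands electrons from ubiquinol to cytochrome c. Of its 9 genes 3 were lower, with a median of -0.525. Uqcrq, which lies beside the mitochondrially encoded cytochrome b, stood at 9.11 and 8.73 in WT GSI, against 10.16 and 9.96 in WT DMSO, and at 8.68 and 8.65 in IkL/L GSI, against 10.31 and 9.94 in IkL/L DMSO. Every GSI array was lower than every DMSO array, by -1.30 ± 0.147 (SE; limma, adjusted p = 0.000712), a 2.47-fold decrease. Uqcr11, the smallest subunit, fell by 0.81 ± 0.139 (adjusted p = 0.00414). Cyc1, the membrane-bound cytochrome that passes electrons on to cytochrome c, stood at 11.40 and 11.15 in WT GSI, against 12.06 and 11.50 in WT DMSO, and at 11.37 and 11.69 in IkL/L GSI, against 12.18 and 11.98 in IkL/L DMSO. IkL/L GSI replicate 2 lay above WT DMSO replicate 2, but within each genotype the groups did not overlap, and the difference was -0.53 ± 0.146 (adjusted p = 0.0338). The call was lost (adjusted p up to 0.128) without WT DMSO replicate 1, WT GSI replicate 2 or any one of the 4 IkL/L arrays.

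The structural core proteins of complex III were not called. Uqcrc1 stood at 11.26 and 10.12 in WT GSI, against 11.61 and 10.94 in WT DMSO, and at 11.02 and 11.16 in IkL/L GSI, against 11.64 and 11.47 in IkL/L DMSO. Its WT replicates lay far apart and the WT groups overlapped, and the difference of -0.53 ± 0.250 did not pass (adjusted p = 0.184). Uqcrc2 had 0.09, Uqcrfs1, the Rieske iron-sulfur protein, had -0.37, and Uqcr10 had -0.59 (adjusted p = 0.0531). Uqcrb and Uqcrh had -0.17 and -0.05.

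Cycs, cytochrome c itself, stood at 11.69 and 11.63 in WT GSI, against 12.82 and 12.56 in WT DMSO, and at 11.69 and 11.28 in IkL/L GSI, against 12.82 and 12.77 in IkL/L DMSO. The 4 GSI arrays lay well below the 4 DMSO arrays. The difference was -1.17 ± 0.108 (SE; limma, adjusted p = 0.000381), a 2.25-fold decrease, and further probe sets of the gene at levels of 11.04 and 10.52 gave -1.87 and -1.65.

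Complex IV reduces oxygen to water. Its nuclear subunits surround a catalytic core encoded by mitochondrial DNA, and 4 of the 17 genes were lower and 2 higher, with a median of -0.099. These are 23.5% lower and 11.8% higher, beside 12.5% and 10.8% of all genes. Ndufa4 was counted with complex I by its symbol and is not among the 17. Cox5a stood at 12.22 and 12.28 in WT GSI, against 12.82 and 12.72 in WT DMSO, and at 12.33 and 12.17 in IkL/L GSI, against 12.79 and 12.82 in IkL/L DMSO. The replicates lay close and the groups did not overlap, with a difference of -0.53 ± 0.0701 (limma, adjusted p = 0.00129). Cox6c and Cox6a1 fell by 0.43 and 0.31. Cox4i1, the common isoform of subunit 4, had 0.13 ± 0.0634 (95% interval -0.02 to 0.271) and Cox5b had -0.19, and neither passed.

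Both increases of complex IV lay outside its common subunits. Cox7a2l, a factor that joins complexes III and IV in supercomplexes, stood at 13.34 and 13.29 in WT GSI, against 12.79 and 12.78 in WT DMSO, and at 13.13 and 13.46 in IkL/L GSI, against 12.63 and 12.65 in IkL/L DMSO. All GSI arrays were higher, by 0.59 ± 0.0797 (limma, adjusted p = 0.00146), and all 3 of its probe sets were called higher. Cox6b2, an isoform known from testis, stood at 7.44 and 7.24 in WT GSI, against 7.03 and 6.87 in WT DMSO, and at 7.34 and 7.75 in IkL/L GSI, against 6.79 and 6.86 in IkL/L DMSO. No group overlapped, with a difference of 0.56 ± 0.141 (adjusted p = 0.0229). Without WT DMSO replicate 2, either IkL/L DMSO array or IkL/L GSI replicate 2 the adjusted p was 0.0686 to 0.0948.

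The tissue-restricted isoforms of complex IV were mostly at low levels. Cox7a1, a muscle isoform, averaged 4.41 over the arrays, below the median of all genes (6.28), and was called lower by -0.48 ± 0.117, a call that was lost without any one of 5 arrays. Cox8b, Cox4i2 and Cox7b2 also lay below that median and were not called, and Cox6a2 and Cox8c lay above it and were not called. In all, 76 of the 83 genes lay above the median of all genes; the 7 others were Cox7a1, Cox8b, Cox4i2, Cox7b2, Ndufb4, Ndufa4l2 and Ndufb1.

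ATP synthase had 11 of its 17 genes lower, none higher, and a median of -0.329. All 17 differences were negative, with that of Atp5c1 near 0. The 3 genes of the c subunit, whose mature protein is the same and forms the membrane ring of the rotor, were all lower. Atp5g1 stood at 8.77 and 8.63 in WT GSI, against 10.15 and 10.01 in WT DMSO, and at 8.40 and 8.41 in IkL/L GSI, against 10.30 and 10.23 in IkL/L DMSO. Its 4 GSI arrays were more than 1 below its 4 DMSO arrays, and the difference of -1.62 ± 0.115 (SE; limma, adjusted p = 0.000213), or 3.08-fold, was the largest of the 83. Atp5g2 fell by 0.59 ± 0.120 and Atp5g3 by 0.37 ± 0.0666.

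The catalytic F1 head was split. Atp5b, the catalytic beta subunit, stood at 12.37 and 11.42 in WT GSI, against 13.07 and 12.60 in WT DMSO, and at 12.19 and 12.28 in IkL/L GSI, against 13.03 and 12.72 in IkL/L DMSO. WT GSI replicate 2 lay almost 1 below its replicate, the groups did not overlap, and the difference was -0.79 ± 0.205 (limma, adjusted p = 0.0249). It did not pass (adjusted p 0.0753 to 0.0948) without any one of the IkL/L GSI arrays or without replicate 1 of WT DMSO or of IkL/L DMSO. Atp5e, the epsilon subunit of the central stalk, fell by 0.66 ± 0.126. The alpha subunit Atp5a1 had -0.18 ± 0.0777 (adjusted p = 0.148), the delta subunit Atp5d had -0.06 ± 0.129, and the gamma subunit Atp5c1 had a difference of -0.00047 with a 95% interval of -0.218 to 0.217. A dimmer probe set of Atp5c1, at a level of 7.81, gave 1.05 and did not pass (limma over probe sets, adjusted p = 0.118).

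The peripheral stalk, which holds the head still, had 3 of 4 genes lower: Atp5o, its OSCP subunit, fell by 0.63 ± 0.108, Atp5j by 0.33 and Atp5pb by 0.26, and Atp5h had -0.04. Of the 5 small membrane subunits Atp5l fell by 0.79 ± 0.125, Atp5k by 0.52 ± 0.104 and Atp5j2 by 0.25 ± 0.062, while Atp5mpl (-0.31) and Atp5md (-0.24) did not pass.

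**Figure D2:**
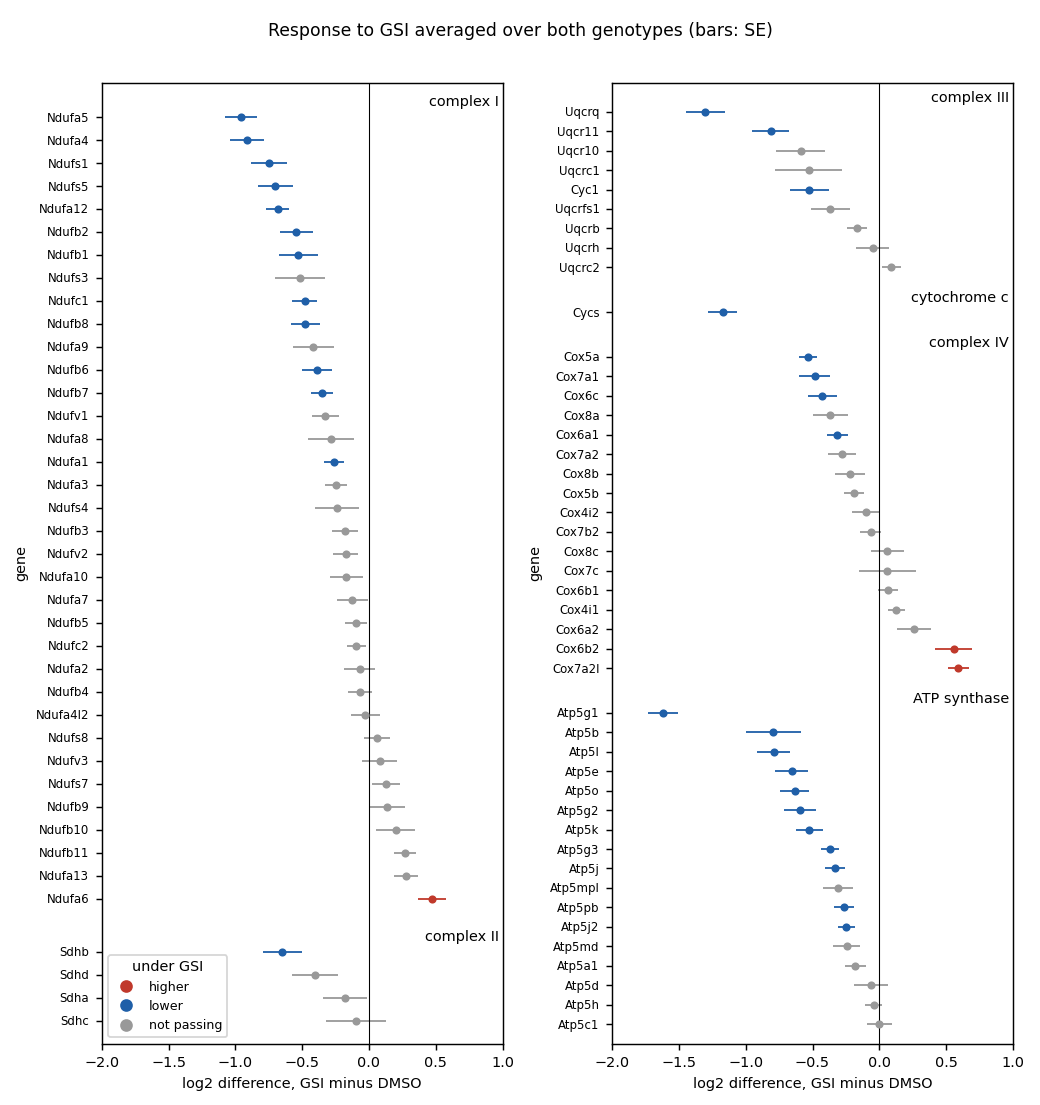
Average log2 difference under GSI (GSI minus DMSO, horizontal axis) of each of the 83 genes, with bars for its SE, grouped by complex; blue genes were called lower, red genes higher and grey genes did not pass. ATP synthase genes lie at or left of 0, from Atp5g1 at -1.62 to Atp5c1 near 0, and Cox7a2l at 0.59 is farthest right.

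**Figure D3:**
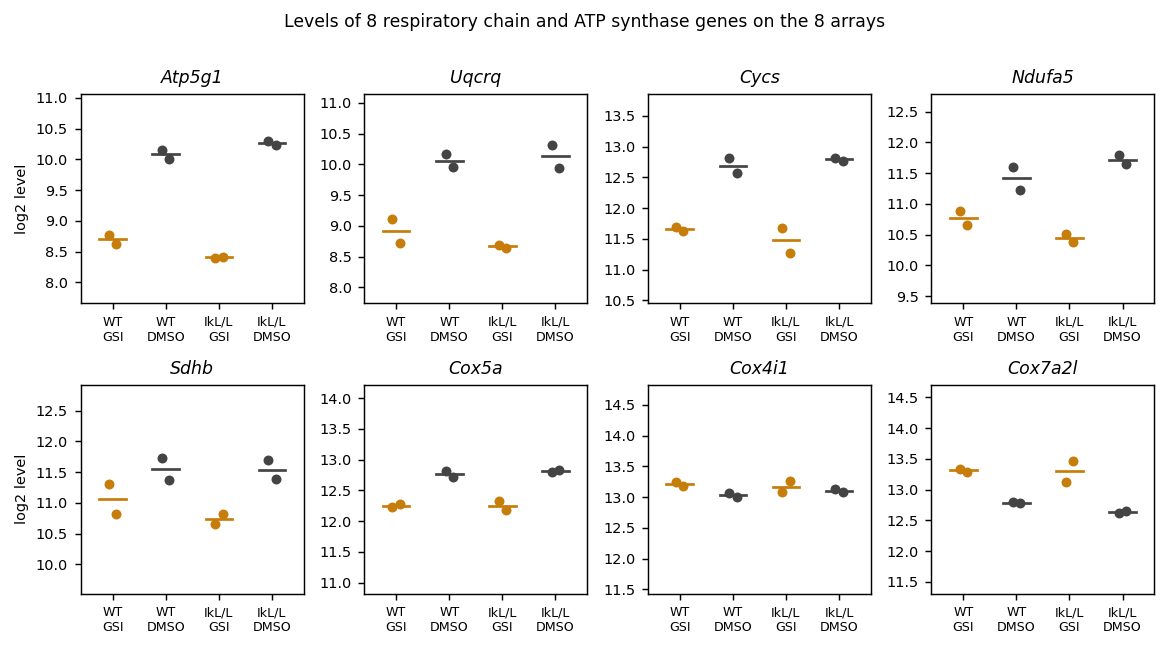
Log2 levels of 8 genes (panels) on single arrays (points) with group means (lines), GSI in orange and DMSO in grey. GSI points lie below the DMSO points of the same genotype in Atp5g1, Uqcrq, Cycs, Ndufa5, Sdhb and Cox5a, differ little in Cox4i1, and lie above them in Cox7a2l.

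The sequences just upstream of the start sites of 4 of these genes are printed to show where short motifs of respiratory gene regulators occur. They are the 250 bases before the RefSeq start on the gene's strand (GRCm38.p6), with matches in capitals. Searched on both strands were the ETS and GABP motif CCGGAAG, the NRF1 motif GCGCANGCG, the YY1 motif AAGATGGC and the E box CACGTG, which Myc with Max and other factors bind. Atp5g1 lies at chr11:96075632-96075881, minus strand, and has an E box that begins 44 bases before the start. Cycs lies at chr6:50566570-50566819, minus strand, and has an NRF1 match 61 bases before the start; NRF1 was first described on the rat cytochrome c gene. Uqcr11 lies at chr10:80406822-80407071, minus strand, and has an ETS and GABP match 66 bases before the start. Cox7a2l, which was higher under GSI, lies at chr17:83514334-83514583, minus strand, and has no match.
Atp5g1: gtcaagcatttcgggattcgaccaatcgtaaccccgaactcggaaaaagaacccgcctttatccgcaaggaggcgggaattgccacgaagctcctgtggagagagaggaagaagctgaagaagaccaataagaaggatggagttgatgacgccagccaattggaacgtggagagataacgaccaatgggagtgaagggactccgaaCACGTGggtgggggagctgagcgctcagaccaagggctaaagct
Cycs: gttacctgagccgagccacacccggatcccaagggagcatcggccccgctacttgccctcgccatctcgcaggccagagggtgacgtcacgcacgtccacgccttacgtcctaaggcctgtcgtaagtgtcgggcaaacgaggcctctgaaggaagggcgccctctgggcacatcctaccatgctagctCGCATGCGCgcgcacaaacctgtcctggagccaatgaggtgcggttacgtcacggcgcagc
Uqcr11: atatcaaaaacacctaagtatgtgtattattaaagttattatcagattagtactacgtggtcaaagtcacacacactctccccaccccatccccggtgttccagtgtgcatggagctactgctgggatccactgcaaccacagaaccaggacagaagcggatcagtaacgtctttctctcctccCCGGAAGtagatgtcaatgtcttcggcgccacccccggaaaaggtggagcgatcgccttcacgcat
Cox7a2l: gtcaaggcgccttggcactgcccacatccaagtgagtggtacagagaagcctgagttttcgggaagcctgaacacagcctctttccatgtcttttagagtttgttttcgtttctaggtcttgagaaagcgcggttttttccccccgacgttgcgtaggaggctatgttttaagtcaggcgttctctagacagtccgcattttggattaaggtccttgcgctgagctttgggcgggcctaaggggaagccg

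RefSeq promoters were listed for 67 of the 83 genes. The printed 4 are examples and do not stand for the set. At least 1 of the motifs was found in 26 of the 67 (38.8%), against 19.6% of all genes with a promoter. Among genes called lower, Atp5b, Atp5o, Cox5a, Ndufa4 and Ndufa12 had no match. The ETS and GABP motif was found in 12 of the 67 (17.9%), against 11.8% of the 14368 genes of the array with a listed promoter and 7.8% of all 27025 genes with one. The NRF1 motif was found in 13 (19.4%), against 9.5% of array genes and 5.9% of all. The E box was found in 6 (9%), against 8.7% of array genes and 6.9% of all, and the YY1 motif in 1 (1.5%), against 2.1% and 1.8%. No match overlapped a match of another motif. Of the 28 genes called lower that had a promoter, 7 held the ETS and GABP motif, 7 the NRF1 motif and 4 the E box; of the 36 that did not pass, these were 5, 6 and 2. A match is a run of letters and not a shown binding site.

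The response was next set apart by genotype. In IkL/L cells 23 of the 83 genes were lower under GSI and 2 higher, against 9.09% of all genes lower and 7.7% higher. In WT cells 6 were lower (Atp5g1, Cycs, Uqcrq, Ndufs1, Ndufa12 and Cox5a) and 1 higher (Cox7a2l), against 4.16% of all genes lower and 2.31% higher. The 7 genes called in WT were also called, in the same direction, in IkL/L. The medians of the 83 were -0.339 in IkL/L and -0.201 in WT, beside -0.046 and 0.035 for all genes. With genes above the median level alone, 27 were lower in IkL/L and 10 in WT. Of all genes in that fit, 18.8% were lower in IkL/L and 10.4% in WT.

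The per-genotype counts rest on few arrays. In IkL/L, 5 genes were lower without IkL/L DMSO replicate 1, 8 without IkL/L GSI replicate 1 or without IkL/L GSI replicate 2, 10 without IkL/L DMSO replicate 2, and up to 29 in the other single omissions; Atp5g1, Cycs, Ndufa12, Ndufa5 and Uqcrq were called in all of them. With the GAPDH covariate 14 were lower in IkL/L, beside 6.79% of all genes. In WT no gene was lower without WT DMSO replicate 1 or when only the 4 WT arrays were fitted; 2 were lower without WT DMSO replicate 2 or WT GSI replicate 2, 3 without either of the IkL/L DMSO arrays and 9 without WT GSI replicate 1. None of the 7 WT calls was made in all omissions, and that of Cox7a2l was made in 2 of 8. Left out together, both WT arrays numbered 1 gave 3 lower and none higher. Fits with the stromal marker level as a covariate gave 39 lower in IkL/L and 20 in WT, beside 15.3% and 10.2% of all genes.

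**Figure D4:**
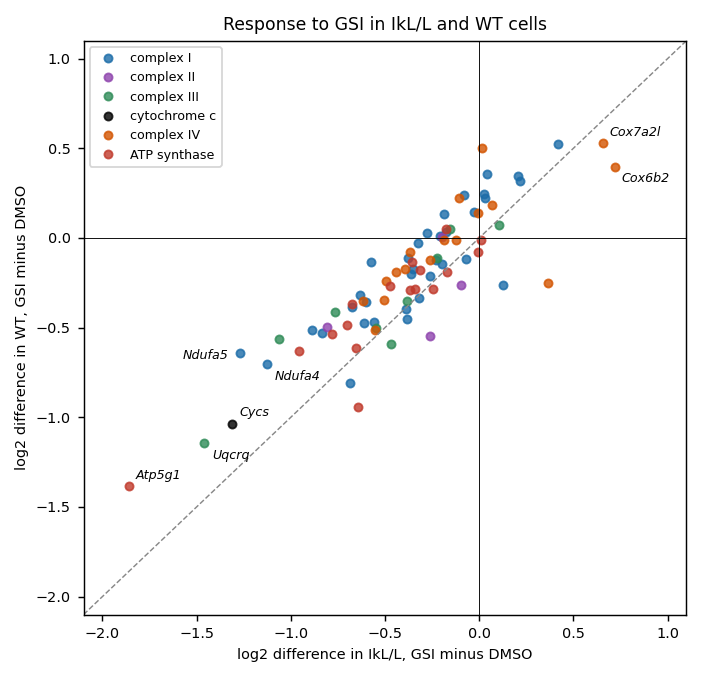
Log2 difference under GSI in IkL/L cells (horizontal axis) against that in WT cells (vertical axis) for each of the 83 genes, coloured by complex, with a dashed line where both are equal. Atp5g1 lies at -1.86 in IkL/L and -1.38 in WT, and more points lie left of the line than right of it.

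No gene passed the test of a difference in the GSI response between IkL/L and WT. In limma's test of the difference, 0 of the 83 were called higher or lower, with 2 at an unadjusted p below 0.05, against 0.0275% of all genes higher and 0.0165% lower. The closest by p were Ndufb7, with -0.44 ± 0.161 (adjusted p = 0.771), and Ndufa5, with -0.63 ± 0.238 (adjusted p = 0.805; 95% interval -1.18 to -0.0792). Next came Ndufb4 (0.39, adjusted p = 0.849) and Atp5g1 (-0.48, adjusted p = 0.855). Ndufb4 was read by a dim probe set, with a mean level of 4.03. Of the 83 differences 65 were negative, with a median of -0.178 against -0.061 over all genes. Both genotypes gave the same sign in 58 genes below 0 and 11 above it, and the sign was opposite in 14. Across the 83 genes the responses of the 2 genotypes correlated with r = 0.88 (Spearman rho 0.87), a description over genes that share arrays and normalization and are not replicates.

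Between IkL/L and WT cells no gene was called under either treatment. Under DMSO 0 of 83 were called by limma, with 4 at an unadjusted p below 0.05, against 0.709% of all genes higher and 1.03% lower. Most differences were small and positive (69 of 83, median 0.104, against 0.031 over all genes). The nearest to the threshold was Cox7c, a small complex IV subunit, which stood at 6.96 and 7.53 in IkL/L DMSO, against 8.84 and 8.28 in WT DMSO. Both IkL/L arrays lay below both WT arrays, and the difference was -1.32 ± 0.301 (adjusted p = 0.0882). It passed with the replicate block, with the GAPDH covariate or with the stromal covariate, each giving 1 gene lower. Of all genes, 1.79%, 3.25% and 2.99% were lower in those fits. After Cox7c came Ndufa12 (0.37, adjusted p = 0.28), Ndufb4 (-0.33, adjusted p = 0.391, at a low mean level of 4.03) and Cox6a1 (0.27, adjusted p = 0.441). Under GSI 0 of 83 were called between IkL/L and WT, with 2 at an unadjusted p below 0.05, against 0.945% of all genes higher and 0.517% lower. Atp5h (0.25, adjusted p = 0.345) and Cox7c (-0.70, adjusted p = 0.459) came closest, and then Ndufa3 (-0.26, adjusted p = 0.485) and Cox6a2 (-0.39, adjusted p = 0.508). The median there was -0.043, the same as over all genes.

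Genes that build, load or feed the chain were compared with the same average response. Import and chaperone genes had 15 of 20 lower, none higher and a median of -0.963. Timm8a1, a carrier of proteins across the intermembrane space, had -1.99 ± 0.173 (limma, adjusted p = 0.000319), Hspd1, the matrix chaperonin, -1.82 ± 0.160 (adjusted p = 0.000321), Timm9 -1.72 and Tomm40, the outer membrane pore, -1.57. Complex I assembly factors had 8 of 16 lower, none higher and a median of -0.606: Ndufaf4 had -1.58 ± 0.167, Ndufaf6 -1.55, Ndufaf2 -1.30 and Ndufaf5 -1.07. Assembly factors of complexes II to V had 7 of 30 lower and 2 higher: Uqcc2 fell by 1.20, Coa7 by 1.12 and Sdhaf3 by 0.87, while Surf1, a complex IV factor, and Ttc19, a complex III factor, were higher by 0.62 and 0.59.

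Enzymes, carriers and regulators around the chain came next. Of 17 citric acid cycle genes 7 were lower, among them Idh3a (-1.59 ± 0.160), Suclg2 (-1.37) and Fh1, fumarase (-0.999), and none was higher. Of 19 genes for electron entry outside complexes I and II, 9 were lower, among them the ubiquinone synthesis gene Coq7 (-1.30) and the dehydrogenases Dhodh (-1.19) and Gpd2 (-1.13), and 2 were higher: Prodh, proline dehydrogenase, by 0.96 and Coq8a by 0.62. Of 10 carrier genes 5 were lower, including the adenine nucleotide carriers Slc25a5 (-0.42) and Slc25a4 (-0.50). Of 19 regulators 7 were lower and none higher: Myc had -2.57 ± 0.402 (limma, adjusted p = 0.00279), Pprc1, a coactivator of respiratory genes, -2.24 ± 0.164, Tfam, the packaging factor of mitochondrial DNA, -0.96 ± 0.126 and Polg, its polymerase, -0.67. Nrf1 (0.14), Gabpa (-0.28), Yy1 (-0.25), Esrra (-0.03) and Ppargc1a (-0.04) did not pass. The single mitochondrially encoded subunit on the array with its own gene name, ND5, had 0.17 and did not pass.

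Counts of these lists moved with the GAPDH covariate: 9 import genes, 5 complex I assembly factors, 2 factors of complexes II to V, 3 citric acid cycle genes, 3 electron entry genes, 0 carrier genes and 6 regulators were then lower. Higher with that covariate were 2 complex I assembly factors, 2 factors of complexes II to V, 1 citric acid cycle gene and 5 electron entry genes, and no import gene, carrier or regulator. Of all genes, 7.9% were lower and 12.3% higher with it. In the omissions of single arrays the lower counts were 13 to 15 for import, 5 to 10 for complex I assembly, 4 to 11 for the other assembly factors, 4 to 8 for the citric acid cycle, 6 to 9 for electron entry, 1 to 5 for carriers and 3 to 7 for regulators. Of the genes named from these lists, Coq8a was called in 1 of the 8 omissions, Polg in 2, Slc25a4 and Surf1 in 4 and Ttc19 in 6, and the others called were called in all 8.

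**Figure D5:**
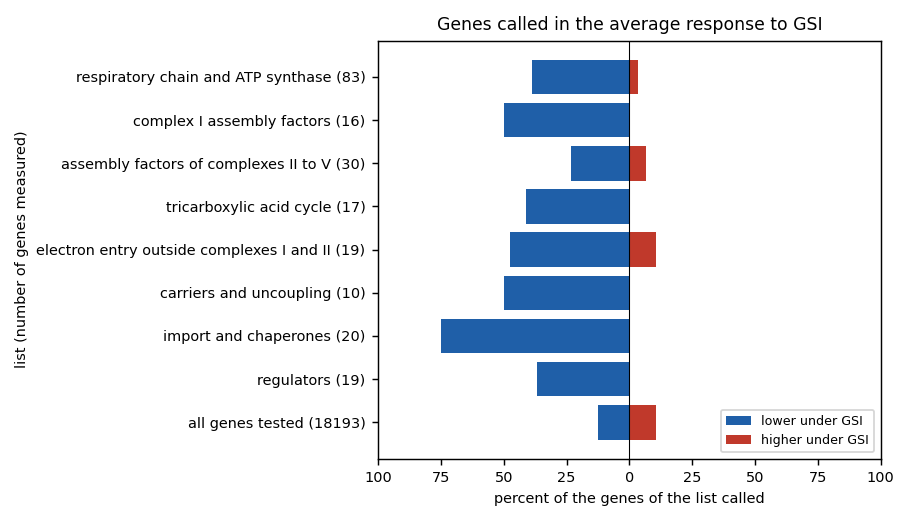
Percent of the genes of each list called lower (blue, left) or higher (red, right) under GSI in the average of both genotypes, with the number of genes measured in brackets and all tested genes at the bottom. Import and chaperone genes have the longest blue bar (75%), and all genes have 12.5% lower and 10.8% higher.

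Because the array holds several probe sets for many of these genes, a second one was compared where it lay above the median level of all genes. That was so for 42 genes. The second probe set had the same sign in 36 and the opposite sign in 5, and it was more negative in 29, with a median of -0.31 against -0.24 for the brightest. Of 15 genes whose brightest probe set was called lower, the second was also lower in 13. Several very bright probe sets gave the smaller difference of the pair. Atp5pb had -0.26 at a level of 12.75 and -1.37 at 9.92, Uqcrb had -0.17 at 13.75 and -0.73 at 11.02, Cox6a1 had -0.31 at 12.85 and -0.83 at 9.61, and Ndufb7 had -0.35 at 11.83 and -0.97 at 9.85. Ndufb8 went the other way, with -0.48 at 10.91 and 0.36 at 7.34. Atp5c1 did so by more, with 0.0 at 13.08 and 1.05 at 7.81. These genes were picked after their values were seen, and why the probe sets differ was not tested.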

How the data were processed

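The deposited values are log2 probe-set levels that the authors made with RMA, per the submitters' processing notes, from biotin-labelled RNA amplified by a 2-cycle protocol, per the labels; its version is not given in the sources used here. They were used as deposited. Of 45101 probe sets, 64 controls, 932 naming several genes (9 of these genes' families) and 9160 without a listed gene were left out, and the brightest probe set of each gene gave 18193 genes. No filter on dim probe sets was used. Groups came from the sample titles, 2 arrays each.

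Tests used limma 3.58.1 under R 4.3.3 (4 group means on all 8 arrays, 4 residual degrees of freedom, eBayes with a trend), two-sided. The 6 contrasts were GSI minus DMSO in each genotype, their average and difference, and IkL/L minus WT under each treatment. The genes, lists and tests were chosen with earlier results of these data known. The genes named are the largest changes among those called in each contrast, or the next by p where few were called, the best known subunits and isoforms, and up to 4 called genes of each list. On simulated data for the average contrast over 18193 genes, 92 of 100 genes with a log2 change of 1, and 99 of 100 with 2, were recovered, with 8 false calls. The simulated noise was independent for each gene and array, without differences in RNA quality or cell content. The 8 false calls therefore do not estimate those in these data. The median decrease among the genes called lower was -0.54, a size that was not simulated. Alternatives were a replicate block, other normalizations, probe-set rules and variance models, 2 covariates and omitted arrays; counts for the related lists and groups within complexes were added after seeing the data. Tables and plots used pandas 2.3.3 and matplotlib 3.10.9.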

Additional observations from a re-analysis of the deposited data

How the results depend on the processing

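Under every alternative tried the named genes called in the 6 comparisons kept their direction. Of the genes fitted, 7.9% were lower with the GAPDH covariate in the average response. Higher were 20.4% with genes above the median level alone, 15.5% with the stromal covariate and 11.9% with quantile normalization repeated. In WT 6.51% were lower with the replicate block, 10.4% with genes above the median level, 5.83% after centring and 10.2% with the stromal covariate. With only the arrays compared, 0.0055% were lower in WT. In IkL/L 6.79% were lower with the GAPDH covariate and 15.3% with the stromal covariate. Between genotypes under DMSO, 1.79% were lower with the replicate block, 3.25% with the GAPDH covariate and 2.99% with the stromal covariate. Between genotypes under GSI, 3.08% were higher with the GAPDH covariate. For the average response (32 lower, 3 higher), 12 were lower with the GAPDH covariate, and 5 were higher with genes above the median level alone or with the stromal covariate and 6 with quantile normalization repeated; single omissions gave 17 to 41 lower and 1 to 5 higher. For WT (6 lower, 1 higher), 10 were lower with the replicate block or with genes above the median level alone, 12 after centring on array medians, 20 with the stromal covariate, 3 without both WT arrays numbered 1, and 0 with only the arrays compared; single omissions gave 0 to 9. WT increases numbered 0 with the mean over probe sets, without both WT arrays numbered 1 and with only the arrays compared, 2 with genes above the median level, repeated quantile normalization (7 lower beside it) or the stromal covariate, and 0 to 1 in single omissions. For IkL/L (23 lower, 2 higher), 14 were lower with the GAPDH covariate and 39 with the stromal covariate; single omissions gave 5 to 29 lower and 0 to 2 higher. Between genotypes, 1 gene was lower under DMSO with the replicate block, the GAPDH or the stromal covariate, and under GSI 2 (Atp5b and Uqcrc1) were higher with the GAPDH covariate and 1 without both WT arrays numbered 1.

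The replicate block gave 37 lower in the average response, against 32 without it. The labels share only a number between groups; deviations of arrays numbered 1 correlated between -0.11 and 0.71. An arm left with 1 array was assumed to vary like the other groups. Levels near the bottom of the scale, as for Cox7b2 at 2.92, limit what a difference in a dim isoform can show.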
